A study of Mus musculus with 8 samples.

Results

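The immediate early genes Fos, Fosb, Jun, Junb, Egr1, Ier2, Ier3, Atf3, Dusp1 and Nr4a1 were examined in polysome RNA of the mouse main olfactory epithelium. They were chosen by name from 21765 rows of the deposited table, and all 10 were found there. All 10 also passed the filter on low values, a mean of at least 1 in transcripts per 1000000 (TPM), which 16097 genes passed. Fosb passed it narrowly, with a mean of 1.04 scaled TPM.

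In a polysome gradient, mRNAs with more ribosomes sediment further. The study collected early polysomes (lighter, fractions 27 to 34) and late polysomes (heavier, fractions 35 to 42) from tissue dissected in 100 µg/mL cycloheximide, which holds ribosomes on their transcripts. Wild-type (WT) mice were Mex3a flox/flox or Mex3a flox/+ without Cre, and conditional knockout (cKO) mice were Mex3a flox/flox with Cre (the line is not reported here). Both genotypes had 2 lysates, and each lysate gave an early and a late library, which makes 8 libraries in 4 groups of 2. The labels give neither the age of the mice nor the number of animals per lysate, and p-values therefore measure only the spread between these libraries, which may be technical. The text for the whole series also names sorted cells and transgenes that the labels of these 8 libraries do not.

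Depth inferred from the steps of the TPM values was 7776792 reads in cKO late replicate 2 and between 10286773 and 12771079 reads in the other libraries. The targeted gene Mex3a, which encodes an RNA-binding protein, had 88.9 to 119 scaled TPM in the 4 WT libraries and 11.0 to 21.3 in the 4 cKO libraries. WT early replicate 2 carries the cKO genotype in one label, against its title and its library name. It was kept as WT, its Mex3a level was the 119, and the counts and the values that moved most are also given without it.

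Immediate early genes are switched on within minutes of a stimulus, without new protein synthesis, through factors already present in the cell, among them the serum response factor and the cyclic AMP response element binding protein. Their mRNAs are short-lived, in part through AU-rich elements in the 3′ UTR. In neurons they follow electrical activity, and in many tissues they also respond to injury and handling. Fos, Fosb, Jun, Junb and Atf3 encode leucine zipper proteins that bind DNA as dimers, the AP-1 complex and its relatives. Egr1 encodes a zinc finger transcription factor, Nr4a1 an orphan nuclear receptor, and Ier2 a nuclear protein. Dusp1 encodes a phosphatase that inactivates MAP kinases, and Ier3 a small stress-response protein.

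Coding sequences ran from 480 nt in Ier3 to 1803 nt in Nr4a1, 8 of the 10 were shorter than the median tested gene (1335 nt), and 3 (Jun, Junb and Ier2) consist of 1 exon. In the GENCODE annotation of GRCm38 (mm10, the build named in the submitters' processing notes), Fos lies on chromosome 12 (85473890 to 85477273, plus strand), Fosb on chromosome 7 (19302696 to 19310051, minus strand), Jun on chromosome 4 (95049034 to 95052222, minus strand) and Junb on chromosome 8 (84974484 to 84978718, minus strand). Atf3 lies on chromosome 1 (191170296 to 191218039, minus strand) and Nr4a1 on chromosome 15 (101254269 to 101274795, plus strand). Ier2 lies on chromosome 8 (84661331 to 84662852, minus strand), Ier3 on chromosome 17 (35821684 to 35822923, plus strand) and Dusp1 on chromosome 17 (26505590 to 26562128, minus strand). Exons of Junb share 173 bases with Prdx2, an abundant peroxiredoxin gene on the opposite strand at 566 to 684 scaled TPM. Exons of Jun share 232 bases with the antisense gene Junos, and those of Dusp1 share 11 bases with Ergic1. Whether the counting used strand is not given in the sources used here, so reads of Junb and Prdx2 may have been mixed.

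Most of the transcripts also carry AU-rich pentamers, a feature that played no part in choosing them. ATTTA occurred at least 3 times in the 3′ UTR of 6 of the 10 (Fos, Jun, Ier3, Atf3, Dusp1 and Nr4a1), against 36.0% of 14369 tested genes with an annotated 3′ UTR. Per kilobase of 3′ UTR, 8 of the 10 lay above the median gene (1.29), from Ier3 at 8.16 down to Ier2, which had none. The longer element TTATTTATT, which contains the pentamer, was found in Fos (1 site) and Dusp1 (2 sites), against 7.53% of these genes. The sites are shown because Fos mRNA is a textbook case of decay through such elements. They lie in the last exon and are read along the transcript, with the element in capitals:
Fos (chr12:85477105-85477129, plus strand): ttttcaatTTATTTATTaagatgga
Dusp1 (chr17:26506161-26506185, minus strand): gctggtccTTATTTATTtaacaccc
Dusp1 (chr17:26505872-26505896, minus strand): ttttacctTTATTTATTtttgtgta

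In the 250 bases before the start of the RefSeq transcript, TGACG, the core of the cyclic AMP response element, occurred on either strand in 6 of the 8 genes that matched the RefSeq promoter table (GRCm38.p6). For Nr4a1, Dusp1 and Atf3, and narrowly for Ier3 and Fosb, this start lies inside the gene span given above from GENCODE, which holds longer transcripts. Of 32851 windows of the same length in that table, 17.8% held it. Nr4a1 had 4 copies, Dusp1 3 and Fos 2, while Fosb, Junb and Atf3 had 1 each and Jun and Ier3 none. The palindrome TGACGTCA, in which copies on both strands overlap, was found in Dusp1, against 1.55% of windows. Jun, with no copy, had the largest rise of the genes examined from early to late polysomes (0.89 log2, mean of genotypes). Ier3, also with none, changed by -0.25 log2. Of the genes with 1 copy, Junb changed by 0.81 log2, Fosb by 0.33 (SE 0.26) and Atf3 by -0.44. Of those with more copies, Nr4a1 changed by 0.71 log2, Dusp1 by 0.50 and Fos by 0.55. A link between the motif and the shift was not tested. Only the windows of the 4 genes with the motif that rose in late polysomes are shown, with TGACG or its reverse complement CGTCA in capitals:
Fos (chr12:85473640-85473889, plus strand): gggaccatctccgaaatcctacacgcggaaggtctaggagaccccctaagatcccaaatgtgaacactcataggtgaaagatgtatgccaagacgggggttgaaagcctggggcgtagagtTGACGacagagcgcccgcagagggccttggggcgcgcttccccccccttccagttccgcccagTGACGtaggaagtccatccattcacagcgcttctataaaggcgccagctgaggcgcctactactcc
Junb (chr8:84978749-84978998, minus strand): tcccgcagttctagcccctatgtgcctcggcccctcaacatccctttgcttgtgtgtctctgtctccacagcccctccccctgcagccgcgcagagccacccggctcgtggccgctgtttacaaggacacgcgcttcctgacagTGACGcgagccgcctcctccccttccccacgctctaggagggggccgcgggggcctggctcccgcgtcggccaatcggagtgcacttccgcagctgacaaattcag
Dusp1 (chr17:26508473-26508722, minus strand): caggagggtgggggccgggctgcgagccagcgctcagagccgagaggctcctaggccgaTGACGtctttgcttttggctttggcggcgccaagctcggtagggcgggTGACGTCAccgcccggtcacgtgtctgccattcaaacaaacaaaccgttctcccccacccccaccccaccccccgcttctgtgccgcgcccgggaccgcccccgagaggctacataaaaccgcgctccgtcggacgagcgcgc
Nr4a1 (chr15:101266596-101266845, plus strand): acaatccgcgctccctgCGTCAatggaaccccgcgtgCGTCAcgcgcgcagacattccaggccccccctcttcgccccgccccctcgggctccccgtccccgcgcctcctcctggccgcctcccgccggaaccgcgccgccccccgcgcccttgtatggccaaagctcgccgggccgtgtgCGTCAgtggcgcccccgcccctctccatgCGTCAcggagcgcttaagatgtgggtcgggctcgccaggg

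Levels differed widely between the genes. TPM is normalised to gene length, so that genes can be set side by side. Levels are given as scaled TPM, the deposited TPM divided by a library factor of 0.931 to 1.06. Over the 8 libraries Jun was highest at a mean of 278 scaled TPM, above 96.8% of tested genes. It was followed by Dusp1 (70.0), Ier2 (62.0), Egr1 (42.4), Junb (30.1), Nr4a1 (24.3), Fos (17.4), Ier3 (14.5), Atf3 (7.79) and Fosb (1.04).

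The order held within fractions with 1 exchange. In early libraries the ranges of the neighbours Dusp1 and Ier2, Ier2 and Egr1, and those from Junb through Nr4a1 and Ier3 to Fos overlapped. In late libraries those of Dusp1 and Ier2, Egr1 and Junb, and Junb and Nr4a1 overlapped. Fos and Ier3 changed places, with Ier3 above Fos in the early mean (15.9 against 14.021 scaled TPM) and Fos above Ier3 in the late mean (20.9 against 13.1), where their ranges did not overlap. Jun alone made up 44.9% to 53.7% of the summed level of the 10 genes, a sum of 378 to 434 scaled TPM in early and 651 to 746 in late libraries. The inferred reads behind a value ran from 2409 to 5118 for Jun, 108 to 220 for Fos, 38 to 101 for Atf3 and 10 to 27 for Fosb. Counting error is therefore widest for Fosb.

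**Figure D1:**
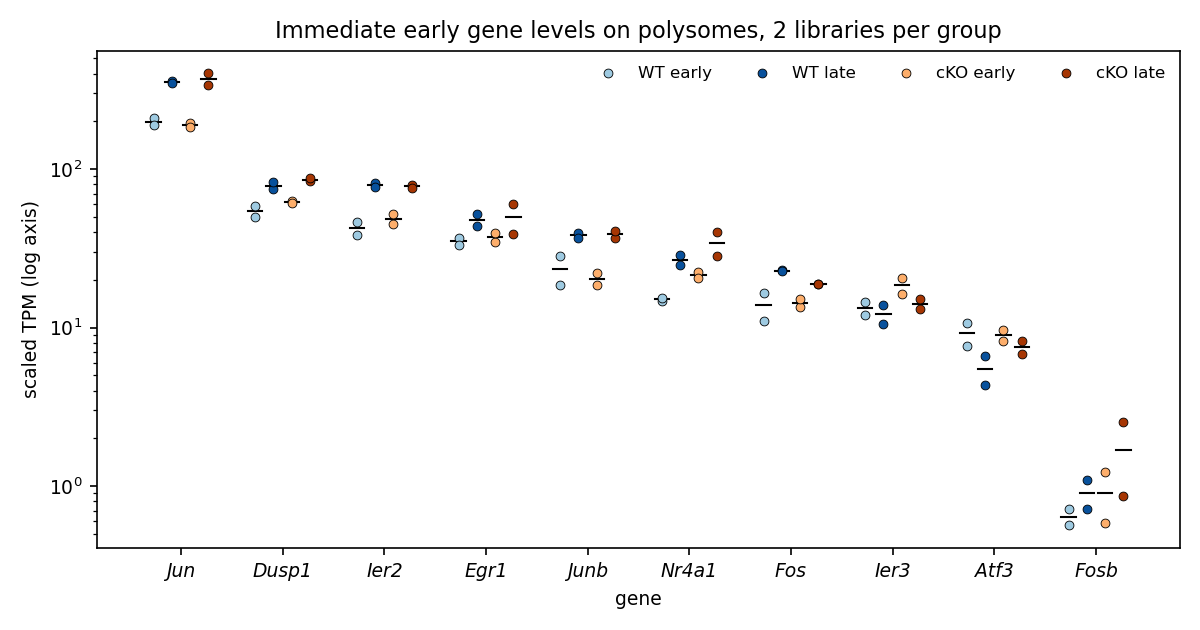
Level of each gene in each library in scaled TPM (log axis), with 2 libraries per group as points and group means as short lines. Jun lies above the other genes in every library, and for Jun, Dusp1, Ier2, Junb, Nr4a1 and Fos every late library lies above every early one.

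The first comparison asked which of these transcripts were more abundant on heavy than on light polysomes. Averaged over genotypes, Jun, Junb, Ier2, Nr4a1, Fos, Dusp1 and Egr1 rose from early to late polysomes (7 of 10 genes), Atf3 fell, and Fosb and Ier3 did not pass an adjusted p of 0.05. Each of the 7 was higher in the late library of 4 of 4 lysates, and in 6 of them, all but Egr1, the late and early libraries did not overlap. Of the 16097 tested genes 34.3% rose and 34.6% fell by the same rule (68.9% in all), and 31.5% were higher in late libraries without overlap. The median change of the 10 genes was 0.52 log2, against -0.011 over all tested genes. Changes are on the log2(scaled TPM + 1) scale, which understates those of low genes, and were tested with limma over all tested genes with Benjamini-Hochberg adjustment. A value is a share of the polysome RNA in a fraction. In a tissue of many cell types, fewer cells of a type and less RNA per cell cannot be told apart.

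**Figure D2:**
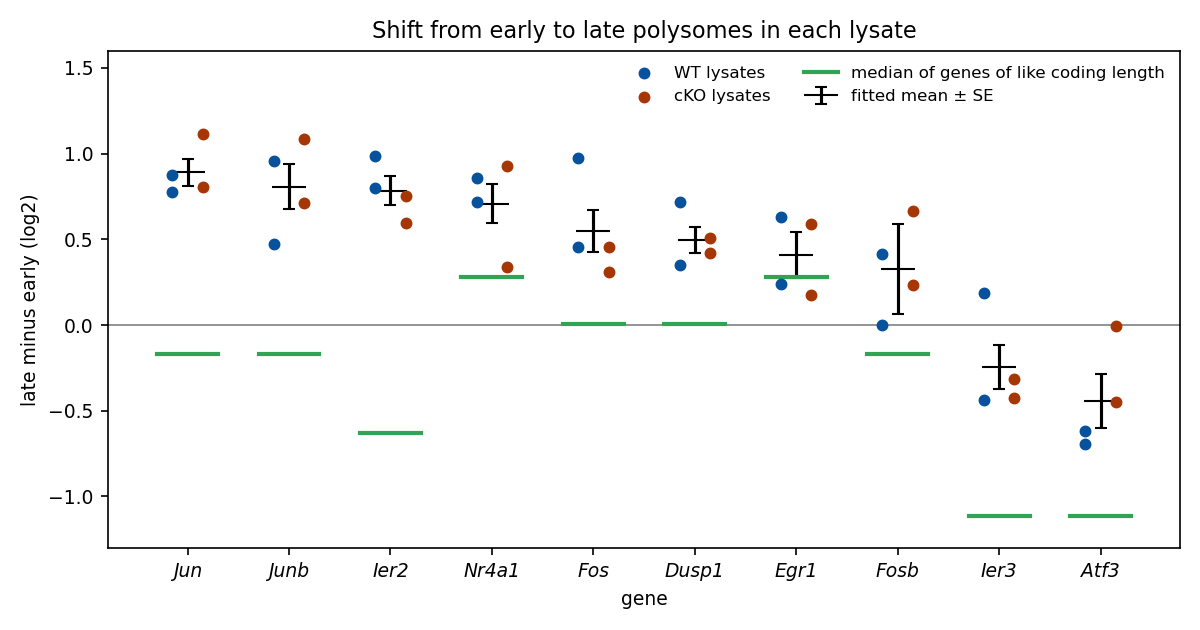
Late minus early log2(scaled TPM + 1) of each gene in each of 4 lysates (blue WT, brown cKO), with the fitted mean over genotypes ± SE in black. Green lines give the median change of tested genes of like coding length (1 of 10 length groups), and the fitted mean of each of the 10 genes lies above its green line.

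Among the AP-1 genes of the 10, Jun and Junb shifted most. Jun had 209 and 189 scaled TPM early against 359 and 346 late in WT, and 194 and 185 early against 340.0 and 401 late in cKO (each pair gives replicates 1 and 2). All its late libraries lay above its early ones, at late-to-early ratios of 1.71 to 2.17 in the 4 lysates, and the rise was 0.89 log2 (SE 0.080, adjusted p = 3.44e-05, limma). Junb, a Jun relative that also dimerises with Fos proteins, had 28.2 and 18.5 scaled TPM early against 39.5 and 36.8 late in WT, and 22.1 and 18.6 early against 36.8 and 40.6 late in cKO. Its early values spread more than its late ones, which were all higher, and the rise was 0.81 log2 (SE 0.13, adjusted p = 0.000657, limma).

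Fos, the partner of the Jun proteins, had 16.6 and 11.0 scaled TPM early against 23.1 and 22.7 late in WT, and 13.4 and 15.1 early against 18.7 and 18.9 late in cKO. Early and late libraries did not overlap, WT early replicate 2 was the lowest, and the rise was 0.55 log2 (SE 0.12, adjusted p = 0.00403, limma). Fosb, a Fos relative, had 0.720 and 0.567 scaled TPM early against 0.717 and 1.09 late in WT, and 0.585 and 1.23 early against 0.860 and 2.53 late in cKO. Its fractions overlapped, cKO late replicate 2 stood above the rest, and its change of 0.33 log2 (SE 0.26, adjusted p = 0.291, limma) did not pass.

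Atf3, a stress-induced member of the leucine zipper group, fell. It had 10.7 and 7.69 scaled TPM early against 6.62 and 4.37 late in WT, and 8.27 and 9.66 early against 8.22 and 6.81 late in cKO. The late library was lower in 4 of 4 lysates, in cKO lysate 1 only at a ratio of 0.994, and the ranges of the fractions overlapped. The change was -0.44 log2 (SE 0.16, adjusted p = 0.0348, limma). It no longer passed in limma without WT early replicate 1 (-0.34 log2, adjusted p = 0.120), WT late replicate 2 (-0.32 log2, adjusted p = 0.119), cKO early replicate 2 (-0.39 log2, adjusted p = 0.104) or cKO late replicate 2 (-0.38 log2, adjusted p = 0.101).

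Of the other regulators, Nr4a1 had 14.8 and 15.3 scaled TPM early against 24.962 and 28.5 late in WT, and 22.3 and 20.6 early against 28.4 and 39.9 late in cKO. Every late library exceeded every early one, and the rise was 0.71 log2 (SE 0.11, adjusted p = 0.000633, limma). Ier2 had 46.4 and 38.4 scaled TPM early against 81.7 and 77.0 late in WT, and 52.3 and 44.7 early against 79.3 and 76.1 late in cKO. Its late values lay close together and above all early ones, and the rise was 0.78 log2 (SE 0.086, adjusted p = 8.28e-05, limma).

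Egr1, on chromosome 18 (34859823 to 34864984, plus strand), had 36.8 and 33.4 scaled TPM early against 43.7 and 52.1 late in WT, and 34.5 and 39.5 early against 39.0 and 60.0 late in cKO. The late library was higher in each lysate, but cKO late replicate 1 lay below the highest early library, and the rise was 0.41 log2 (SE 0.14, adjusted p = 0.0252, limma). In limma this call was lost without WT early replicate 2, the library with the conflicting label (0.37 log2, adjusted p = 0.0789), WT late replicate 2 (0.35 log2, adjusted p = 0.0888), cKO early replicate 1 (0.36 log2, adjusted p = 0.0758) or cKO late replicate 2 (0.26 log2, adjusted p = 0.0564).

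The signalling genes Dusp1 and Ier3 did not move alike. Dusp1 had 58.5 and 49.6 scaled TPM early against 74.8 and 82.3 late in WT, and 62.6 and 61.2 early against 83.9 and 87.4 late in cKO. No late library overlapped an early one, and the rise was 0.50 log2 (SE 0.076, adjusted p = 0.000457, limma). Ier3 had 12.1 and 14.5 scaled TPM early against 13.9 and 10.5 late in WT, and 20.7 and 16.4 early against 15.2 and 13.0 late in cKO. The late library was lower in 3 of 4 lysates, the fractions overlapped, and the change of -0.25 log2 (SE 0.13, adjusted p = 0.117, limma) did not pass.

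Within WT alone 7 of the 10 genes passed, 6 higher (Jun, Junb, Fos, Ier2, Nr4a1 and Dusp1) and Atf3 lower, against 54.8% of all tested genes, with 27.1% higher and 27.7% lower. Within cKO alone 5 passed, all higher (Jun, Junb, Ier2, Nr4a1 and Dusp1), against 58.1% of all tested genes, with 28.9% higher and 29.2% lower. Fos changed by 0.71 log2 (SE 0.18, adjusted p = 0.00895, limma) in WT and by 0.38 log2 (SE 0.18, adjusted p = 0.0907, limma) in cKO. Atf3 changed by -0.66 log2 (SE 0.22, adjusted p = 0.0362, limma) in WT and by -0.23 log2 (SE 0.22, adjusted p = 0.407, limma) in cKO. The difference between genotypes was tested as an interaction and passed for 0 of the 10 genes, against 0.00621% of all tested genes. At an unadjusted p under 0.05 it passed for 0 of the 10 in limma (2.85% of all genes) and for 0 with voom on inferred reads (2.46%), and voom gave 0 calls after adjustment (0.0%). The interaction was -0.33 log2 (SE 0.25, adjusted p = 1.0, limma) for Fos and 0.43 log2 (SE 0.32, adjusted p = 1.0, limma) for Atf3, the lowest and highest of the 10. These values rest in part on the library with the conflicting label. Without it, WT early replicate 2, the interaction was -0.057 log2 (limma, adjusted p = 0.993) for Fos, 0.64 log2 (limma, adjusted p = 0.990) for Atf3 and 0.48 log2 (limma, adjusted p = 0.990) for Junb, and the lowest of the 10 was that of Ier3 (-0.37 log2).

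Single libraries decided some of these calls. In limma without WT early replicate 2, the library with the conflicting label, 7 of the 10 passed on average over genotypes and 5 in WT, where Fos (0.44 log2, adjusted p = 0.0510) and Junb (0.42 log2, adjusted p = 0.0665) no longer did. The same fit gave 6 calls in cKO, since Fos passed there (0.38 log2, limma, adjusted p = 0.0281), so that Fos passed in cKO and not in WT. Fos in cKO also passed without WT early replicate 1 (limma, adjusted p = 0.0295). Egr1 in WT passed without cKO late replicate 1 (0.43 log2, limma, adjusted p = 0.0227) or cKO late replicate 2 (adjusted p = 0.0233), and Egr1 in cKO without cKO late replicate 1 (0.68 log2, adjusted p = 0.00913). Junb in WT was also lost without WT late replicate 1 (0.66 log2, adjusted p = 0.0615). Atf3 in WT was lost without WT early replicate 1 (-0.44 log2, adjusted p = 0.202) or WT late replicate 2 (-0.40 log2, adjusted p = 0.225). Nr4a1 in cKO was lost in limma without cKO early replicate 2 (0.57 log2, adjusted p = 0.0590) or cKO late replicate 2 (0.39 log2, adjusted p = 0.0581).

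A longer coding sequence has room for more ribosomes, and over all tested genes the median change was higher in groups of longer coding length. The tested genes with a coding length (91.2%) were divided into 10 equal groups by that length, and each immediate early gene was set beside its own length group. All 10 lay above the median of their length group, and 9 of 10, all but Egr1, lay above 75% of its genes. Ier2, with 663 coding nt, showed the widest gap of the 10, a rise of 0.78 log2 where the median of its group was -0.63, and exceeded 98.1% of these genes. Jun (1002 nt) exceeded 95.5% and Junb (1032 nt) 93.8% of a group with a median of -0.17. Ier3 and Atf3, the shortest at 480 and 543 nt, had lower late than early fitted values, yet exceeded 94.8% and 90.1% of a group with a median of -1.12. Of the longest, Nr4a1 (1803 nt) exceeded 78.5% and Egr1 (1599 nt) 59.0% of a group with a median of 0.28. These percentiles describe the libraries and carry no test.

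**Figure D3:**
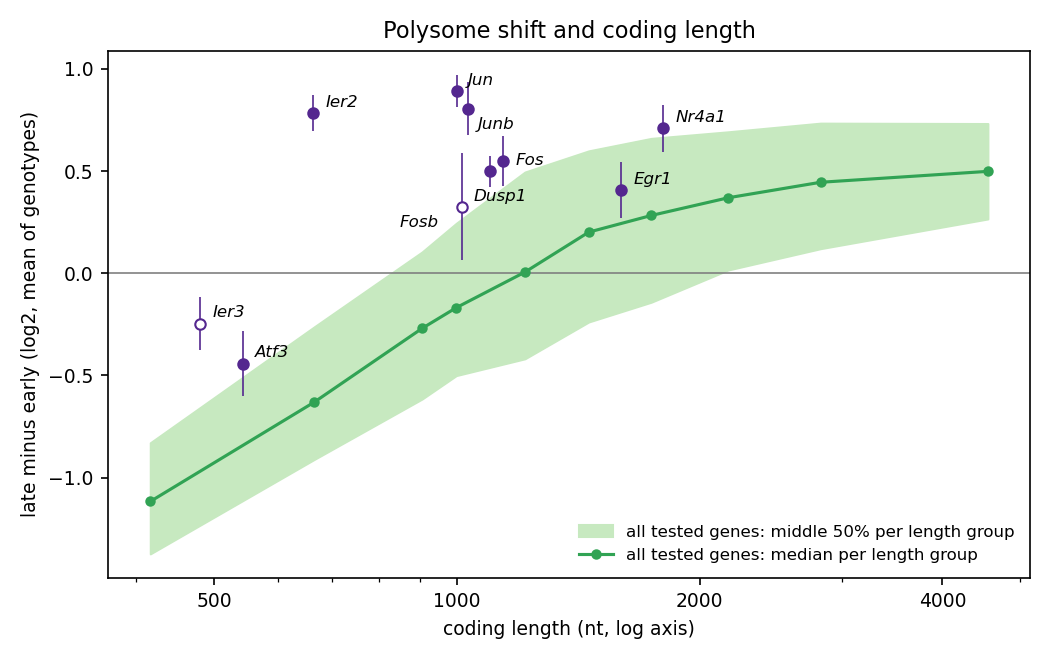
Late minus early change (log2, mean of genotypes ± SE) against coding length (nt, log axis), with filled points past an adjusted p of 0.05 and open points not. The green line and band give the median and the middle 50% of all tested genes in each of 10 coding length groups, and Ier2, Jun and Junb stand well above the band.

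Markers of cell types moved between fractions as well, where 34.3% of all tested genes rose and 34.6% fell. The 11 sustentacular (supporting) cell markers summed to 7783 to 9495 scaled TPM in early and 13330 to 15173 in late libraries, with 9 genes higher and 1 lower. The 12 mature olfactory neuron markers were present in every library and summed to 9393 to 11682 in early and 7407 to 8836 in late libraries, although 9 of them rose and 2 fell. Of 7 endothelial markers 6 rose and of 6 fibroblast markers 4, with none lower. Of 8 neutrophil markers 2 rose and 5 fell. Over the marker lists no gene was at 0 in all libraries, and Retnlg, a neutrophil gene, was at 0 in some. The part of these cell types in the shift of the immediate early genes was not tested.

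The other genes of the response did not move as a block (of all tested genes 34.3% rose and 34.6% fell). Unlike the 10, the related lists were not set beside genes of like coding length. Over all tested genes the median change ran from -1.12 log2 in the shortest length group to 0.50 in the longest. Of 12 tested AP-1 and leucine zipper relatives 2 rose and 10 fell (list median -0.72 log2). The 2 that rose, Fosl2 by 0.68 (SE 0.087, adjusted p = 0.000182, limma) and Cebpd by 0.24 (SE 0.093, adjusted p = 0.0475, limma), and Jund were singled out after their values were seen. Jund, a Jun relative that is expressed without a stimulus, changed by -0.51 (SE 0.073, adjusted p = 0.000339, limma), from a mean of 209 to 146 scaled TPM. The largest falls were those of Batf (-1.12 log2), Batf3 (-1.04) and the stress factor Atf4, which changed by -0.96 (SE 0.091, adjusted p = 4.46e-05, limma). Atf5, the most abundant of the list, changed by -0.93 (SE 0.12, adjusted p = 0.000211, limma). Atf4 and Atf5 mRNAs are known for upstream open reading frames that limit their translation, and the part of these frames in the falls was not tested.

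Of 15 tested transcription factor genes of the response outside AP-1, 7 rose and 4 fell (median 0.24 log2). Ets2 rose most, by 1.22 (SE 0.077, adjusted p = 1.88e-05, limma), followed by the clock gene Per1 (0.97) and Klf2 (0.91). Relatives of Egr1 and Nr4a1, singled out after their values were seen, differed from one another. Nr4a3 rose by 0.48 (SE 0.12, adjusted p = 0.00608, limma) and Egr3 changed by -0.54 (SE 0.15, adjusted p = 0.0105, limma), whereas Nr4a2 (0.055) and Egr2 (-0.028) did not pass.

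Feedback regulators were split, with 8 of 23 higher and 7 lower (median 0.045 log2), near the shares of all tested genes (34.3% and 34.6%). The MAP kinase phosphatase gene Dusp4 rose by 1.03 (SE 0.13, adjusted p = 0.000136, limma) and Ier5, a relative of Ier2, by 0.94, while Spred1, an inhibitor of growth factor signalling, had -0.89. Of 13 tested effector genes 7 rose and 2 fell. Arc, a regulator of synapses, rose by 0.99 (SE 0.14, adjusted p = 0.000336, limma), from a mean of 3.26 to 7.44 scaled TPM. The matricellular protein gene Cyr61 rose by 0.83 and the kinase gene Plk2 by 0.69.

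Upstream transcription factors and kinases were split too, with 7 of 20 tested higher and 10 lower. Mkl1, a coactivator of the serum response factor, rose by 1.26 (SE 0.13, adjusted p = 5.40e-05, limma) and the coactivator gene Crtc1 by 0.84, while Atf1, a relative of the cyclic AMP response element binding protein, had -1.02. Of 6 genes associated with activity of olfactory neurons 4 rose and 1 fell. That 1 was S100a5, a calcium-binding protein gene, at -1.72 (SE 0.16, adjusted p = 4.18e-05, limma), whereas the adhesion gene Pcdh10 rose by 1.01 and the receptor gene Epha5 by 0.65. Heat shock genes, some of which also respond to handling of tissue, rose in 10 of 12 cases, against 34.3% of all tested genes. Among them Hsp90aa1 rose by 1.28 (SE 0.13, adjusted p = 5.91e-05, limma) and Hspb1 by 1.22, while Hspe1 fell (-1.49). Their mean levels ran from 1.39 scaled TPM for Hspa1a and 2.97 for Hspa1b to 956 for Hspa8. The 12 summed to 1537 to 1998 scaled TPM in early and 2827 to 3352 in late libraries. Their part in the shift of the immediate early genes was not tested.

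**Figure D4:**
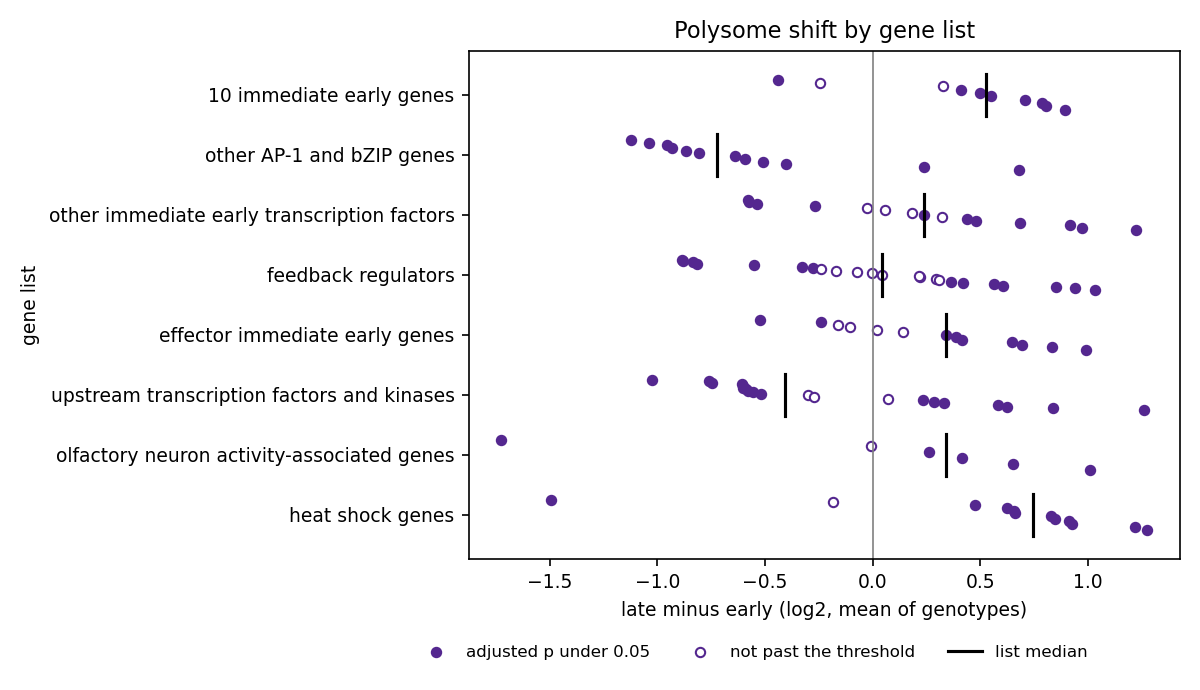
Late minus early change (log2, mean of genotypes) of each gene of the 10 immediate early genes and of 7 related lists; filled points passed an adjusted p of 0.05, open points did not, and black lines are list medians. The medians were 0.52 for the 10 genes and -0.72 for their AP-1 and other leucine zipper (bZIP) relatives, without regard to coding length.

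The second comparison asked whether loss of Mex3a went with a change of these genes on polysomes. None of the 10 passed in limma, in early polysomes (0 of 10, against 0.0435% of all tested genes), late polysomes (0 of 10, against 0.0124%) or the means of both fractions per lysate (0 of 10, against 0.00621%). At an unadjusted p under 0.05, 2 passed in early polysomes (6.64% of all genes), 0 in late (9.36%) and 3 on lysate means (11.3%). With voom on inferred reads 0 of the 10 passed after adjustment in early polysomes (0.0746% of all genes), late polysomes (0.0933%) and lysate means (0.361%). Before it, 1, 0 and 1 passed (7.68%, 8.89% and 15.2%). The median difference of the 10 genes was 0.13 log2 in early polysomes, 0.096 in late polysomes and 0.12 on lysate means, against medians of all genes of 0.0054, -0.00066 and 0.0014.

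Nr4a1 had the widest difference of the 10 on lysate means. It had 14.8 and 15.3 scaled TPM in WT early against 22.3 and 20.6 in cKO early libraries, with no overlap. In late libraries 1 cKO value (28.4) lay just below the higher WT value (28.5). The difference, cKO minus WT, was 0.48 log2 (SE 0.16, adjusted p = 0.697, limma) in early, 0.33 log2 (SE 0.16, adjusted p = 0.574, limma) in late polysomes and 0.40 log2 (SE 0.099, adjusted p = 0.359, limma) on lysate means, with adjusted p-values of 0.0691 to 0.942 over the alternative fits of the last. Without WT lysate 2 the last difference was 0.46 log2 (limma, adjusted p = 0.604). Without WT early replicate 2 the early difference was 0.51 log2 (limma, adjusted p = 0.754).

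Ier3 and Dusp1 were also higher in both cKO lysates than in both WT lysates, so that 3 of the 10 were higher without overlap, against 22.7% of all genes. The same 3 were higher without overlap in early polysomes, against 19.6%. In late polysomes Dusp1 was again higher without overlap (83.9 and 87.4 scaled TPM in cKO against 74.8 and 82.3 in WT), and Ier3 overlapped. The late differences were 0.12 log2 (SE 0.11, adjusted p = 0.745, limma) for Dusp1 and 0.20 log2 (SE 0.18, adjusted p = 0.758, limma) for Ier3. Ier3 differed by 0.45 log2 (SE 0.18, adjusted p = 0.728, limma) in early polysomes and 0.32 log2 (SE 0.12, adjusted p = 0.413, limma) on lysate means. Dusp1 differed by 0.20 log2 (SE 0.11, adjusted p = 0.802, limma) in early polysomes and 0.16 log2 (SE 0.065, adjusted p = 0.439, limma) on lysate means. None of these differences passed after adjustment. Without WT early replicate 2 the early differences were 0.57 log2 for Ier3 and 0.081 for Dusp1. Without WT lysate 2 the lysate means differed by 0.29 and 0.14.

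For the AP-1 genes the genotypes overlapped on lysate means. Jun differed by -0.068 log2 (SE 0.11, adjusted p = 0.943, limma) in early and 0.067 log2 (SE 0.11, adjusted p = 0.882, limma) in late polysomes, and Fos by 0.065 log2 (SE 0.18, adjusted p = 0.967, limma) and -0.27 log2 (SE 0.18, adjusted p = 0.666, limma). The cKO late libraries of Fos (18.7 and 18.9 scaled TPM) both lay below the WT ones (23.1 and 22.7), and those of Atf3 (8.22 and 6.81) above them (6.62 and 4.37). In late polysomes 1 of the 10 (Fos) was thus lower and 2 (Atf3 and Dusp1) were higher in cKO without overlap, against 20.1% and 20.5% of all genes. Without WT early replicate 2, the early difference of Fos turned to -0.21 log2 (limma, adjusted p = 0.788), and Junb differed by -0.46 log2 in early polysomes (limma, adjusted p = 0.754), against -0.16 with it.

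The related lists gave no call in limma either. Of the 7 lists, 0 genes passed between genotypes. At an unadjusted p under 0.05, 0 to 2 per list passed in early or late polysomes and 0 to 6 on lysate means. The 6 were among 20 tested upstream transcription factors and kinases. Over all genes 6.64% passed at this level in early polysomes, 9.36% in late polysomes and 11.3% on lysate means. With voom on lysate sums 1 gene each passed among the AP-1 relatives (Jund) and the olfactory activity genes (Pcdh10), against 0.361% of all genes. Macrophage and microglia markers, cells that also express immediate early genes when activated, summed to 192 to 212 scaled TPM in WT early and 225 to 242 in cKO early libraries, and to 220.1 to 239 and 277 to 279 in late ones. Neutrophil markers summed to 344 to 385 in WT early and 419 to 498 in cKO early libraries, and to 406 to 478 and 443 to 680.4 in late ones, which overlapped. The erythroid gene Alas2 had 32.2 to 47.3 scaled TPM in WT early and 50.4 to 57.3 in cKO early libraries, and 36.7 to 46.3 and 57.3 to 59.2 in late ones. It did not pass between genotypes in limma, but did so at an unadjusted p under 0.05 in early polysomes, late polysomes and lysate means. Of the 9 macrophage and 8 neutrophil markers 0 passed between genotypes, and 3 and 0 did so at an unadjusted p under 0.05 on lysate means (11.3% of all genes). Sums of immature olfactory neuron markers were lower in cKO, at 2722 to 2775 scaled TPM in WT early against 2589 to 2644 in cKO early libraries. In late ones they were 3068 to 3266 against 2855 to 2899. Of these 9 genes 0 passed, and 3 did so at an unadjusted p under 0.05 on lysate means. Mature olfactory neuron sums overlapped in early libraries and were 8249 to 8836 in WT late against 7407 to 8213 in cKO late ones. The part of these cells in the differences of Nr4a1, Ier3 and Dusp1 was not tested.

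**Figure D5:**
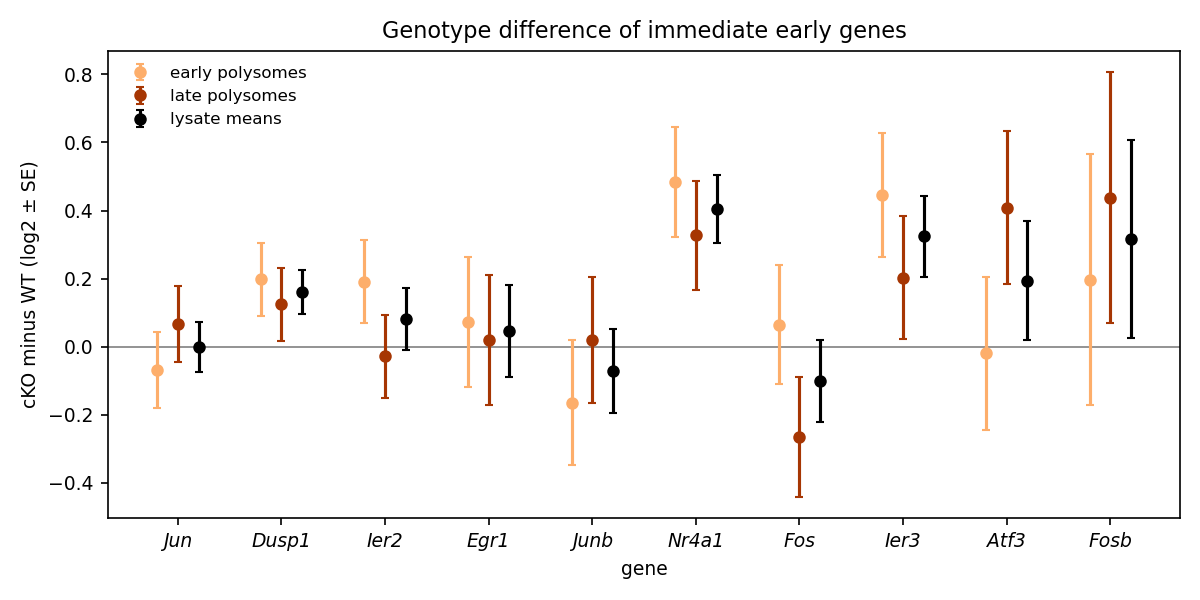
Difference between genotypes (cKO minus WT, log2 ± SE) of each gene in early polysomes, late polysomes and lysate means. Nr4a1, Ier3, Dusp1, Fosb and Egr1 lie above 0 in all 3, Jun lies near 0, and none passed an adjusted p of 0.05.

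The genes whose profile over the 8 libraries was most like that of the 10 were found by Pearson's r on log2(scaled TPM + 1) over 12798 genes. The libraries share 4 lysates and fall into 2 fractions, so the 8 points are not independent and r carries no test. With the mean of the 10 genes 1419 genes had an r of at least 0.9. The closest were Entpd3 (r = 0.994), Trib1 (0.994), Tmco4 (0.992), Plscr2 (0.991) and Mocs1 (0.991). Of the 10 themselves, Dusp1 lay closest to their mean (0.974), and Ier3 (-0.339) and Atf3 (-0.488) ran against it. For Fos alone the closest genes were Mrpl19 (0.974), Piezo2 (0.966) and Slx4 (0.966), of 288 with an r of at least 0.9.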

How the data were processed

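Stranded total RNA libraries of pooled polysome fractions were analysed. About 42 fractions of 350 µL were collected, and 50 µL each of fractions 27 to 34 (early) or 35 to 42 (late) were pooled. The authors deposited TPM values for 21765 gene symbols, each library summing to 1000000. FastQC, cutadapt, STAR, DESeq2 and the build mm10 are named in the submitters' processing notes, and the counter, annotation and filters are not given in the sources used here. Of the rows, 27 carried symbols turned into dates and none is named.

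TPM was scaled by median ratios, and the values were tested as log2(scaled TPM + 1) in limma 3.58.1 (R 4.3.3), with the 4 groups fitted together, a mean-variance trend, two-sided p-values and Benjamini-Hochberg adjustment over the 16097 genes with a mean TPM of at least 1. For genotype, early and late log2 values were also averaged within a lysate and compared as 2 against 2. TPM states no depth, but each gene's values are multiples of what 1 read is worth, and this gave whole reads for 19783 genes above 0 in at least 2 libraries (100% within a tolerance of 0.001), which voom tested as an alternative. The scripts were tested on simulated data.

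GENCODE on GRCm38 gave positions, coding lengths and 3′ UTRs, and may not be the authors' annotation. The members, the related lists and the markers were chosen with earlier results of these data known. Named genes were the 10 members, up to 3 genes per list with the largest late against early change past the threshold and up to 2 of the highest level. Hspa1a and Hspa1b were named outside these rules, as were the genes said to be singled out after their values were seen. Other alternatives were a pseudocount of 0.1, no filter, a mean TPM of at least 5, no scaling, quantile normalization, leaving out each library, replicate blocks and only the 4 libraries compared. The pairing of an early with a late library comes from the lysate in the library names. Across genes, paired libraries deviated from their group means with r = 0.0862 (WT) and 0.0502 (cKO). Haemoglobin genes were not analysed here (Hba-a1, Hba-a2, Hbb-bs and Hbb-bt were not found among the rows by these names), and Alas2 stood for erythroid cells.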

Additional observations from a re-analysis of the deposited data

How the results depend on the processing

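Over the alternatives, the 10 genes gave 6 to 8 calls late against early on average over genotypes, 5 to 8 in WT and 4 to 6 in cKO, the same ranges as when single libraries were left out, and 0 in each genotype comparison and in the interaction. With the lysate as a replicate block the counts were 8, 7 and 5, and 0 for the interaction, and with the replicate number as a block 0 for each genotype comparison. No label says that a number is a shared batch or day, and same-numbered WT and cKO libraries deviated together at r = 0.331 in early and 0.142 in late polysomes. Without WT late replicate 2, Ier3 in WT turned from -0.13 to 0.060 log2 (-0.31 to 0.060 over left-out libraries), and without cKO late replicate 2, Fosb in cKO turned from 0.45 to -0.016 (-0.016 to 0.91). Neither passed in any of these fits, and the cause was not tested. The fall of Atf3 was lost with no filter (adjusted p = 0.0639, limma, where more genes are tested) and with no scaling (-0.34 log2, adjusted p = 0.0818, limma). Over all genes, 7 passed between genotypes in early polysomes, 2 in late and 1 on lysate means, and these counts ran over 0 to 12, 0 to 15 and 0 to 82, the 82 with the replicate number as a block. The interaction, called for 1 gene, ran over 0 to 7. Fosb was not tested with a mean TPM of at least 5.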

Other observations

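Jund, a relative of Jun, and Pcdh10, an adhesion gene regulated by activity, are outside the 10 genes and were singled out after their values were seen. Jund had 159 and 187 scaled TPM in WT early against 241 and 251 in cKO early libraries, and 121 and 125 in WT late against 164 and 174 in cKO late libraries. The genotypes did not overlap in either fraction. The difference on lysate means was 0.48 (SE 0.077, adjusted p = 0.215, limma), and voom on reads summed per lysate gave 0.51 log2 (SE 0.081, adjusted p = 0.0451). Without WT lysate 2, left out as an alternative chosen after seeing the data, the difference was 0.55 log2 (adjusted p = 0.386, limma) and 0.58 log2 (adjusted p = 0.0340, voom). Jun itself differed by -0.00088 log2 on lysate means (limma, adjusted p = 0.998), and the difference between Jund and Jun was not tested.

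Pcdh10 had 14.996 and 14.3 scaled TPM in WT early against 11.7 and 10.2 in cKO early libraries, and 29.2 and 32.0 in WT late against 21.5 and 24.3 in cKO late libraries, again without overlap. The difference on lysate means was -0.40 (SE 0.083, adjusted p = 0.328, limma), and voom on summed reads gave -0.50 log2 (SE 0.075, adjusted p = 0.0391). Without WT lysate 2 it was -0.38 log2 (adjusted p = 0.636, limma) and -0.46 log2 (adjusted p = 0.102, voom), so that the voom call of Pcdh10 was lost. With all lysates both genes passed the threshold in voom and not in limma.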
